A study of Mus musculus with 2 samples.

Results

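The genes described here build, guard and clear the folding space of the endoplasmic reticulum (ER): 47 genes for the sensors of ER stress, the ER chaperones, the disulfide isomerases, the ER-associated degradation (ERAD) machinery and the translocon. They were listed by name and found in both count tables through the gene ID, without its version, in GENCODE M21 on GRCm38, and all 47 of 47 had a row among the 47643 genes of the tables. Of these, 45 reached 150 reads in siCtl, siPhf6 or both and were kept, as were 10130 genes in all. Derl3 and Vcp had fewer, so their reads and ratios are given without a call. Crebrf and Sil1 passed this filter through the siCtl library alone.

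Proteins made for the cell surface, for secretion or for the organelles of the secretory path enter the ER through the translocon, fold there with the help of chaperones and gain disulfide bonds from the isomerases. Chains that fail to fold are drawn back to the cytosol and degraded, which is ERAD. When unfolded chains gather, the sensors IRE1 (gene Ern1), PERK (gene Eif2ak3) and ATF6 signal to the nucleus and to the ribosome. IRE1 splices the mRNA of the transcription factor XBP1, ATF6 is cut by Golgi proteases to release a transcription factor, and PERK slows translation and favours ATF4. Growing neurons and neural precursors make much membrane and many adhesion molecules and receptors, and so rely on this path.

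The 2 libraries are mRNA of cells labelled cortical progenitors, taken from the brain cortex of wild-type mice at embryonic day E14, with the sex given as M, and grown in culture for 5 days. Cells of the siCtl library had received a non-targeting control siRNA and those of the siPhf6 library siRNAs against Phf6, a PHD finger protein of the nucleus, both by electroporation. The study's methods describe more than one sample in each group, but each group is 1 library here, and whether that library is one of those samples or a pool of them is not given in the sources used here. Each comparison therefore is of these libraries and has no replicate check. The siCtl library held 12155311 reads in genes and the siPhf6 library 10561757.

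Phf6 itself had 1420 reads in siCtl and 310 in siPhf6, or 117 and 29.4 RPM (reads of the gene for every 1000000 of the library's reads in genes). On the log2 scale the ratio, siPhf6 over siCtl, was -1.99 with a 95% counting interval of -2.17 to -1.81, which is the direction that the siRNA label gives. Here and below, the ratio is taken after adding 1 read to each count and scaling to the library's reads in genes, and the interval is exact (Clopper-Pearson) and covers counting error only. A gene is called higher or lower in siPhf6 where its log2 ratio lay beyond 0.25 in either direction and its interval left out 0.

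The label of the cells was set beside marker genes, with the most abundant marker of each list named. Transcripts of postmitotic neurons had the most reads among the marker lists (Map2, which binds microtubules of dendrites, 10650 and 10391 reads in siCtl and siPhf6), while those of radial glia, the progenitors of the cortex, were also present (Ptprz1, a receptor phosphatase, 2479 and 2509). Markers of microglia and of choroid plexus were at or near 0, with at most 44 reads (Aif1) and at most 7 reads (Aqp1) in either library. In bulk RNA, fewer cells of a type and less RNA per cell cannot be told apart. Several marker lists differed between the libraries in the same direction as the ER genes. The 11 radial glia markers summed to 599 RPM in siCtl and 784 in siPhf6, with 5 of 7 kept markers higher and none lower. The 10 astrocyte markers summed to 513 and 668 RPM, with 3 of 8 kept markers higher and none lower. Slc1a2 alone held 2947 and 3846 of the 6231 and 7056 reads of the astrocyte list in siCtl and siPhf6. Of the 8 kept astrocyte markers 6 lay above 0 and 2 below, Gfap (-0.14) and Gja1 (-0.02). The 9 markers of dividing cells (Pcna, 255 and 178 reads) summed to 65.2 and 108 RPM and the 8 meningeal fibroblast markers (Col1a2, 79 and 140 reads) to 24.3 and 46.1 RPM. No count is given for those lists, since Mki67, Top2a, Mcm2 and Col1a1 reached 150 reads through siPhf6 alone. So did Aqp4 among the astrocyte markers and Olig2 among those of the oligodendrocyte lineage, and their calls were in part set by that filter. The 5 markers of intermediate progenitors (Btg2, 1011 and 1253 reads) summed to 179 and 223 RPM (2 of 3 kept higher, none lower) and the 7 of the oligodendrocyte lineage (Mbp, 369 and 258 reads) to 75.4 and 96.3 RPM (2 of 3 kept higher, 1 lower). The 8 endothelial and mural markers (Rgs5, 360 and 248 reads) were at 58.7 and 54.3 RPM (none of 2 kept higher, 1 lower), with Cldn5 at 0 in both libraries. The 12 neuronal markers were close between the libraries, at 3494 and 3552 RPM, with none higher and 1 lower. Of all kept genes, 15.5% were called higher and 14.7% lower. None of the radial glia, astrocyte, dividing cell or fibroblast markers was at 0. The part of these cells in the values of the ER genes was not tested.

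More of the ER genes were higher than lower in siPhf6, by small ratios. Of the 45 kept members, 17 were called higher (37.78%), 4 lower (8.89%) and 24 neither, where 15.5% of all 10130 kept genes were called higher and 14.7% lower. The median log2 ratio was 0.17 over the members and 0.0096 over all kept genes, and 35 members (77.78%) lay above 0 against 51.76% of all kept genes. The members called higher were Ern1, Atf6, Atf6b, Creb3l2, Hspa5, Hsp90b1, Hyou1, Calr, Dnajb9, Dnajc3, Sdf2l1, Creld2, Pdia6, Txndc5, Derl1, Os9 and Sec61b, and those called lower were Crebrf, Mbtps2, Sil1 and Pdia3. Their ratios ran from -0.55 for Crebrf to 0.79 for Sdf2l1. In sum the members took 5941 RPM in siCtl and 6618 in siPhf6.

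Few of the ratios were large. With a limit of 0.5 on the log2 ratio, only Sdf2l1, Creld2 and Creb3l2 were higher and only Crebrf, kept through siCtl alone, was lower. That is 6.67% and 2.22% of the kept members, where 5.55% and 4.93% of all kept genes passed this limit. When the interval was widened as if cultures varied with a coefficient of 0.1, 3 members were higher and 1 lower (6.67% and 2.22%), where 6.56% and 6.24% of all kept genes were called. Among the 1522 genes with more than 4000 reads summed over the libraries, where counting error is small (median SD 0.04), the lowest decile of the log2 ratio ended at -0.26 and the highest began at 0.21. Calr (0.251) and Os9 (0.258) lay just above the limit of 0.25 and P4hb (0.248) and Syvn1 (0.241) just under it.

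**Figure D1:**
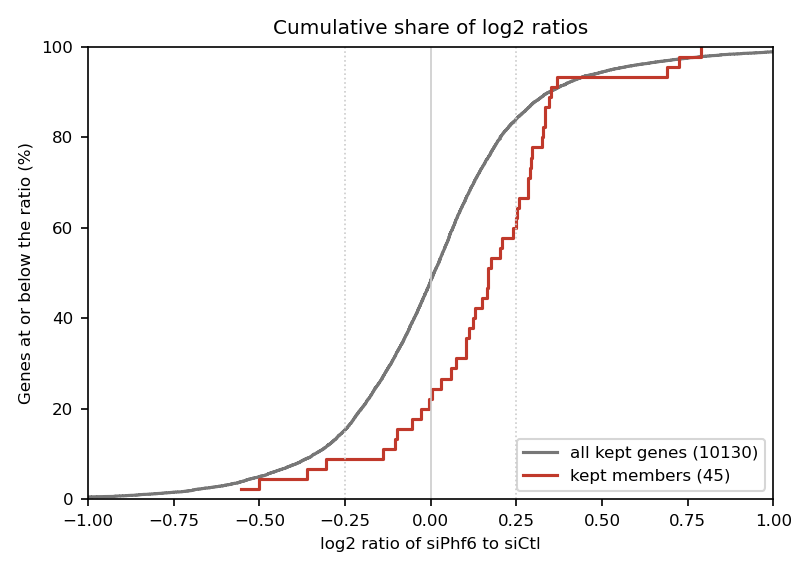
Cumulative share of genes (vertical axis, %) at or below each log2 ratio, siPhf6 over siCtl (horizontal axis, drawn from -1 to 1), for the 45 kept members (red) and all 10130 kept genes (grey); dotted lines mark 0.25 in each direction. The red curve lies to the right of the grey one through the middle of the range, with medians of 0.17 and 0.0096, and the red curve first passes above the grey one at 0.35, the ratio of Atf6.

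Per length, the members covered a wide range of levels. Canx, a membrane-bound lectin chaperone, had the highest level in siCtl at 70.7 RPKM (RPM divided by the kilobases of exon), and Hspa5, the Hsp70 of the ER, had the highest in siPhf6 at 86.9 RPKM. Calr, Hspa5, Os9 and P4hb followed Canx in siCtl at 69.6, 68.3, 68.6 and 67.9 RPKM. Crebrf was the lowest kept member, at 1.97 RPKM in siCtl and 1.34 in siPhf6. The sensors themselves were lower than these chaperones, with Ern1 at 4.82 and 5.87 RPKM, Atf6 at 12.8 and 16.3 and Eif2ak3 at 21.4 and 20.6.

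**Figure D2:**
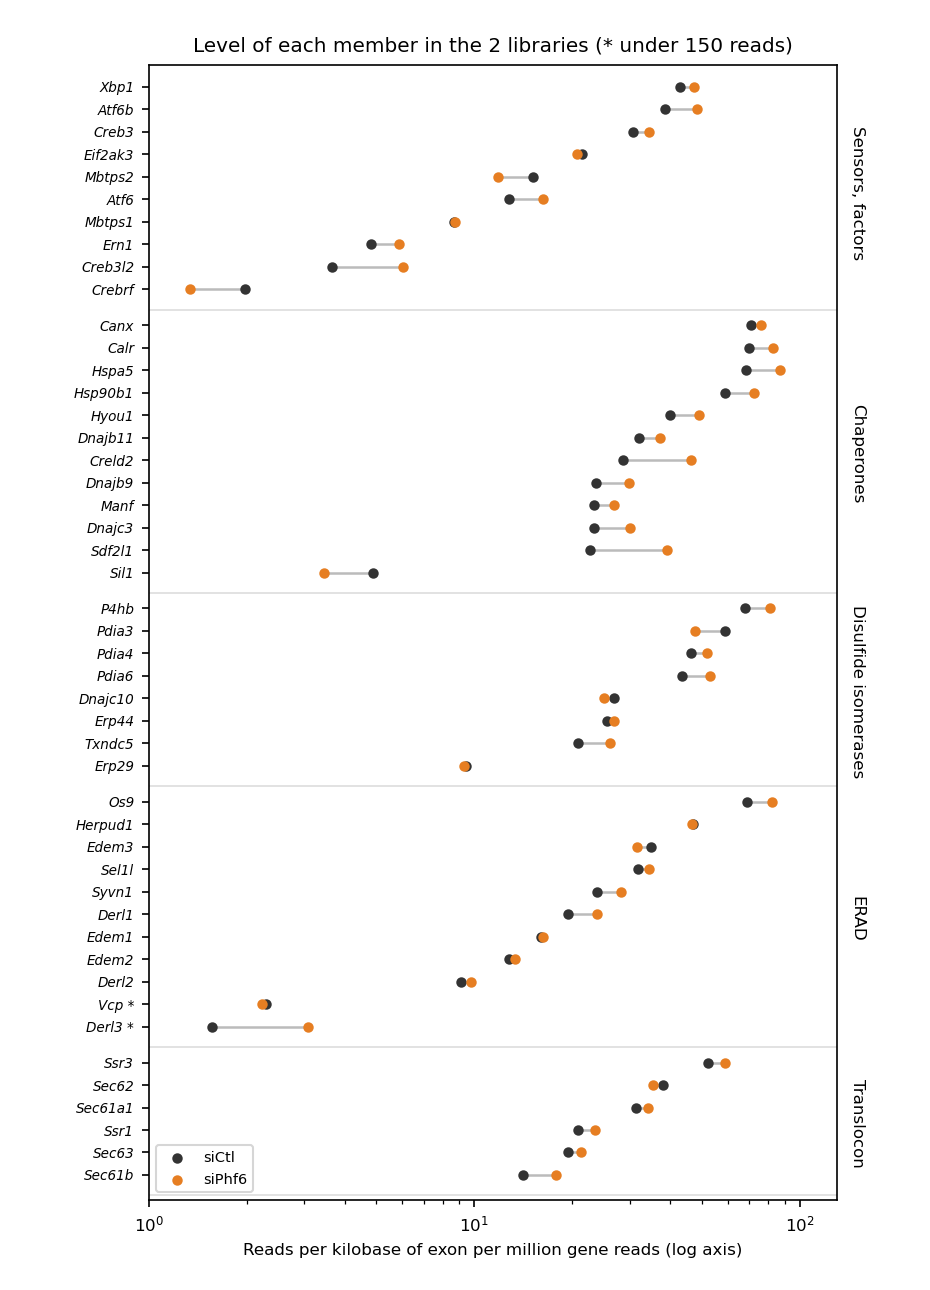
Level of each of the 47 members in RPKM (horizontal log axis) in siCtl (dark points) and siPhf6 (orange points), grouped by role, with asterisks on Vcp and Derl3, which had under 150 reads in both libraries. Orange lies to the right of dark for most chaperones, by most for Sdf2l1 (22.6 and 39.1 RPKM) and Creld2 (28.6 and 46.2). It lies to the left for the members called lower, Crebrf, Mbtps2, Sil1 and Pdia3. By less, it also lies to the left for Eif2ak3, Dnajc10, Erp29, Herpud1, Edem3, Sec62 and Vcp.

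Many ER chaperone genes carry in their promoter an ER stress element (ERSE), which ATF6 and XBP1 are known to act through together with the CCAAT-binding factor NF-Y. Its letters are CCAAT, any 9 bases and CCACG. Both strands of the RefSeq promoter windows (GRCm38.p6, from 250 bases before to 50 bases after the start site) were searched. Windows were matched by symbol for 40 of the 47 members; Atf6, Hyou1, Sil1, Manf, Erp29, Derl1 and Sec61a1 were not matched. The ERSE stood in a window of 9 of these 40 members (22.5%), against 39 of all 32851 windows (0.119%). Counted by gene, 14 of the 7924 kept genes with a window had one (0.177%), 8 of them members. The members were listed by name, but the element is known from ER chaperone genes, so this share is no independent result. The sites are printed because they are the sequence that these members share. Each is read so that CCAAT comes first, with the fixed letters in capitals and the 9 free bases in lower case:
Hspa5: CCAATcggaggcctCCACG
Hsp90b1, site nearer the start: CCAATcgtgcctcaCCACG
Hsp90b1, site farther from the start: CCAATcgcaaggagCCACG
Calr: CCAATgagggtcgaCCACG
Canx: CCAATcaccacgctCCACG
Dnajc3: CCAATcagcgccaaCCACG
Creld2: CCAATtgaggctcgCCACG
Pdia6: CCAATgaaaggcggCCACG
Syvn1: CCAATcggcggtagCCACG
Derl3: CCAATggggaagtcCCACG

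The free bases differed from gene to gene but were rich in G and C, 6 or 7 of the 9 in every site. In 6 of the 10 sites the element ran in the direction of the gene, and in those of Calr, Creld2 and Derl3 and the nearer site of Hsp90b1 it ran against it. The site of Hspa5 lay at chr2:34772025-34772043, with 46 bases between it and the start site, that of Creld2 at chr15:88819520-88819538, with 107 bases, and that of Calr at chr8:84847075-84847093, with 143 bases. The sites of Hsp90b1 lay at chr10:86705533-86705551 and chr10:86705638-86705656, with 88 and 193 bases, and that of Syvn1, at chr19:6046532-6046550, was the closest, with 25 bases.

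The whole window of Hspa5 is shown as the example with the most reads among the called members (chr2:34771840-34772139, plus strand), with the fixed letters of the ERSE in capitals:
Hspa5 window: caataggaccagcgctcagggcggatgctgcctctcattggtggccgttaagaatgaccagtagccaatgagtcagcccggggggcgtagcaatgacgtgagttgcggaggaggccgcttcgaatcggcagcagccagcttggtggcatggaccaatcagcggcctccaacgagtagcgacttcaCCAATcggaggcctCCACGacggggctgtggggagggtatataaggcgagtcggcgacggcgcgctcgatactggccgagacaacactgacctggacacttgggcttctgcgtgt

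The window of Creld2, the member with an ERSE and the highest ratio among those kept (chr15:88819396-88819695, plus strand), holds the element on the other strand, so that its fixed letters read CGTGG and then ATTGG:
Creld2 window: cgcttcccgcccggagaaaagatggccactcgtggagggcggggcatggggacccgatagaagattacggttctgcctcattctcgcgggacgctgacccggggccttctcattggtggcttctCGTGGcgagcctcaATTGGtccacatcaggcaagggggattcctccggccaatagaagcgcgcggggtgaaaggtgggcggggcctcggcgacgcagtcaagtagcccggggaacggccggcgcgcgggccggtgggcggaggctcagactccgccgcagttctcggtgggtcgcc

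The 8 kept members with an ERSE all lay above 0, from 0.10 for Canx to 0.69 for Creld2, with a median log2 ratio of 0.29. Of these, 6 were called higher and none lower, where 15.5% and 14.7% of all kept genes were called higher and lower. The 30 kept members whose window held none spread from -0.55 to 0.79 with a median of 0.14, and 8 of them were higher and 3 lower. Among the chaperones alone the split was not seen, since the 6 with an ERSE had a median of 0.32 and the 3 without it, Dnajb9, Dnajb11 and Sdf2l1, one of 0.33. A related element, ERSE-II (ATTGG, any base, CCACG), stood in the windows of Herpud1 and Dnajb11, and in 0.037% of all windows. Neither of them was called (-0.0047 and 0.21). The core TGACGTGG, a site known to bind XBP1 and ATF6, stood in the window of Vcp and in 1 window of Txndc5. Windows at other start sites of Txndc5 held none. Of all windows, 0.676% held this core. A match describes letters in a window and not a bound site.

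**Figure D3:**
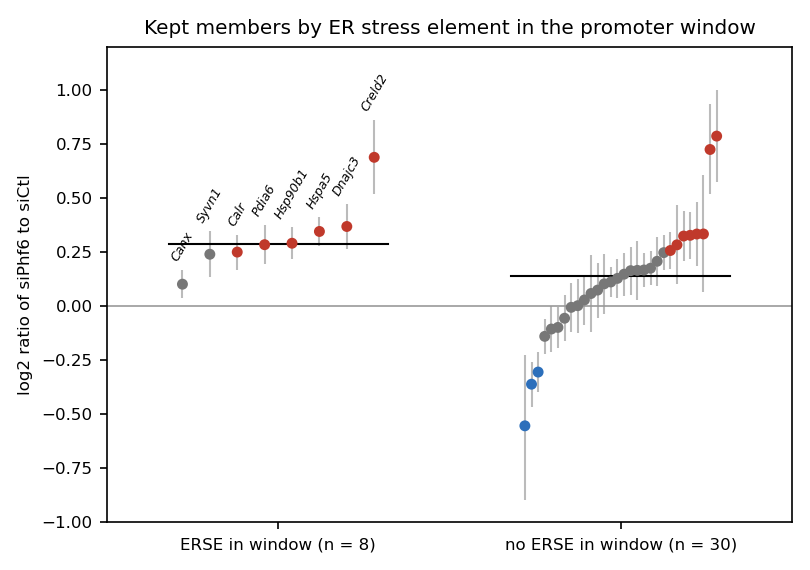
Vertical axis, log2 ratio (siPhf6 over siCtl); points, the kept members with a promoter window, 8 with an ERSE (left, named) and 30 without (right), with grey bars for 95% counting intervals, black lines medians of 0.29 and 0.14, red genes called higher and blue genes called lower. All 8 points on the left lie above 0, and the right-hand group spans both directions.

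The chaperones held the most members called higher, 8 of 12 (66.67%, where all kept genes had 15.5%), with 1 lower and a median log2 ratio of 0.29. Hspa5, which binds unfolded chains and keeps the sensors silent, had 289 RPM in siCtl and 367 in siPhf6, a ratio of 0.35 (95% counting interval 0.28 to 0.41). Its partners of the folding cycle were higher as well. Hsp90b1, the Hsp90 of the ER, had 237 and 291 RPM (0.29, 0.22 to 0.37), though 15.7% of its exon bases overlap other annotated genes. Hyou1, a large Hsp70 that exchanges the nucleotide of Hspa5, had 289 and 353 RPM (0.29, 0.22 to 0.36). The J-domain proteins listed as chaperones, which bring substrates to Hspa5 and start its ATP cycle, were above 0. Dnajc3 was at 0.37 (0.27 to 0.47) and Dnajb9 at 0.33 (0.19 to 0.48), and Dnajb11, at 0.21 (0.09 to 0.32), was not called. Sil1, the other nucleotide exchange factor of Hspa5, stood apart from this set with 204 and 125 reads in siCtl and siPhf6 (-0.50, -0.84 to -0.18). It was kept through siCtl alone.

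The largest ratios of the chaperone set were those of small soluble proteins of the ER lumen. Sdf2l1, a partner of the J-domain proteins, had 305 and 458 reads, or 25.1 RPM in siCtl and 43.4 in siPhf6 (0.79, 0.58 to 1.003). Creld2, an ER stress protein with EGF-like repeats, had 475 and 666 reads, or 39.1 and 63.1 RPM (0.69, 0.52 to 0.86). These ratios ranked 218 and 305 from the highest of the 10130 kept genes. Manf, a secreted and ER-resident protein that protects neurons, had exactly 1000 reads in each library, which after scaling is 0.20 (0.07 to 0.33), under the limit. The lectin chaperones, which hold glycoproteins, differed in size of ratio: Calr, soluble, was at 0.25 (0.17 to 0.33) and Canx, in the membrane, at 0.10 (0.04 to 0.17), not called.

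Disulfide isomerases and their relatives showed no common direction, with 2 of 8 higher (25.0%), 1 lower (12.5%) and a median of 0.12, shares not far from the 15.5% and 14.7% of all kept genes. Pdia6, an isomerase that also acts on IRE1, had 162 RPM in siCtl and 198 in siPhf6 (0.29, 0.20 to 0.37), and Txndc5, a thioredoxin-domain protein of the ER, had 93.8 and 117 (0.33, 0.21 to 0.44), with 11.9% of its exon bases in overlapping genes. P4hb, the classical protein disulfide isomerase, was at 0.25 (0.17 to 0.33), which did not pass the limit. Pdia4, another isomerase, lay at 0.17 (0.05 to 0.28) and was called neither higher nor lower. Pdia3 was lower, with 185 and 150 RPM (-0.30, -0.40 to -0.21). This isomerase works on glycoproteins held by Calr and Canx, so within this lectin cycle Pdia3 was lower while Canx was not called. The call of Calr, just above the limit, was lost with TMM or DESeq2 scaling, without the 50 most abundant genes in the totals, and with the length trend subtracted (0.22 to 0.25). The reductase Dnajc10 (-0.11, -0.21 to 0.0002), the retrieval protein Erp44 (0.08, -0.05 to 0.20) and Erp29, which lacks isomerase activity (-0.03, -0.16 to 0.10), had intervals that held 0, and 26.4% of the exon bases of Erp29 overlap Naa25 and Tmem116.

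Of the ERAD genes, 2 of 9 kept were higher (22.22%, near the 15.5% of all kept genes) and none was lower, with a median of 0.10. Os9, a lectin that hands misfolded glycoproteins to the ubiquitin ligase, had 180 RPM in siCtl and 216 in siPhf6 (0.26, 0.17 to 0.34), but its call was lost with TMM or DESeq2 scaling and with the length or GC trend subtracted, which left 1 of 9 higher. Derl1, a membrane protein of the exit channel, had 64.7 and 79.3 (0.30, 0.15 to 0.44). The ligase Syvn1, with 116 and 137 RPM (0.24, 0.13 to 0.35), and its partner Sel1l, with 272 and 294 RPM (0.11, 0.04 to 0.18), had intervals above 0 but did not pass the limit. The mannose-trimming proteins that mark glycoproteins for removal ran from Edem3 at -0.14 (-0.22 to -0.06) through Edem1 at 0.03 (-0.09 to 0.15) to Edem2 at 0.06 (-0.12 to 0.24), and none was called. Derl2 was at 0.10 (-0.03 to 0.24). Herpud1, a scaffold of the ligase and a textbook target of both ATF6 and PERK signalling, was level, at 109 RPM in each library (-0.0047, -0.12 to 0.11).

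The members under the filter belong to ERAD. Derl3, a Derlin of secretory cells, had 38 and 65 reads in siCtl and siPhf6 (0.96, with a wide interval of 0.38 to 1.59). Vcp, the ATPase that pulls chains from the membrane, had 135 and 114 reads (-0.04, -0.41 to 0.33). Its value is uncertain: 60.1% of the 50-base words of its longest transcript also occur in the transcript of Vcp-rs, a related gene elsewhere, and the tables list no reads with several alignments, so how reads of these genes were divided is not known.

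The sensors and their transcription factors did not share a direction. On the ATF6 side, Atf6 had 118 RPM in siCtl and 150 in siPhf6 (0.35, 0.25 to 0.45), and its relative Atf6b 106 and 134 (0.33, 0.22 to 0.44). The proteases that cut them did not follow. Mbtps1 (site-1 protease) was level at 91.6 and 91.7 RPM (0.0030, -0.12 to 0.13), and Mbtps2 (site-2 protease) was lower, with 153 and 119 RPM (-0.36, -0.46 to -0.26). Of the exon bases of Mbtps2, 28.4% overlap Yy2, where unstranded reads of these genes cannot be told apart. On the IRE1 side, Ern1 was higher (479 and 507 reads, 0.28, 0.10 to 0.47), and its substrate Xbp1, at 139 and 154 RPM (0.15, 0.05 to 0.25), was not called. The counts are per gene, so spliced and unspliced Xbp1 cannot be told apart. Eif2ak3, the PERK kinase, was at -0.06 (-0.16 to 0.05).

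The CREB3 factors are ER membrane proteins that the same proteases release. Creb3l2, which drives genes of ER-to-Golgi transport, had 324 and 466 reads, or 26.7 RPM in siCtl and 44.1 in siPhf6. Its log2 ratio, 0.73 (0.52 to 0.94), was the highest of the sensor set. Creb3 was at 0.17 (0.03 to 0.30) and was not called, with 20.8% of its exon bases in Gba2 and Tln1. Crebrf, which binds Creb3 and promotes its breakdown, was lower, with 205 and 121 reads (-0.55, -0.89 to -0.23). The sensor set as a whole thus had 4 of 10 members higher (40.0%), 2 lower (20.0%) and a median of 0.16. Of all kept genes, 15.5% were called higher and 14.7% lower, so the lower share was near that of all kept genes. Crebrf was kept through siCtl alone.

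The translocon genes had small ratios, with 5 of 6 above 0, 1 called higher (16.67%, close to the 15.5% of all kept genes), none lower and a median of 0.15. Sec61a1, the channel itself, had 212 RPM in siCtl and 230 in siPhf6 (0.12, 0.04 to 0.20), and its small subunit Sec61b 218 and 239 reads (0.33, 0.06 to 0.61). The call of Sec61b was lost with the length trend subtracted and when an FDR under 0.01 on the reads was also required, and 15.3% of the 50-base words of its longest transcript occur in transcripts of genes elsewhere. The translocon-associated proteins, which help glycoproteins through the channel, had nearly equal ratios, Ssr1 at 0.18 (0.10 to 0.26) and Ssr3 at 0.17 (0.09 to 0.25). Sec63, which recruits Hspa5 to the channel, was at 0.13 (0.04 to 0.22), and its partner Sec62, also a receptor for ER turnover, at -0.10 (-0.19 to -0.0027), with 11.7% of its exon bases in an overlapping gene.

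**Figure D4:**
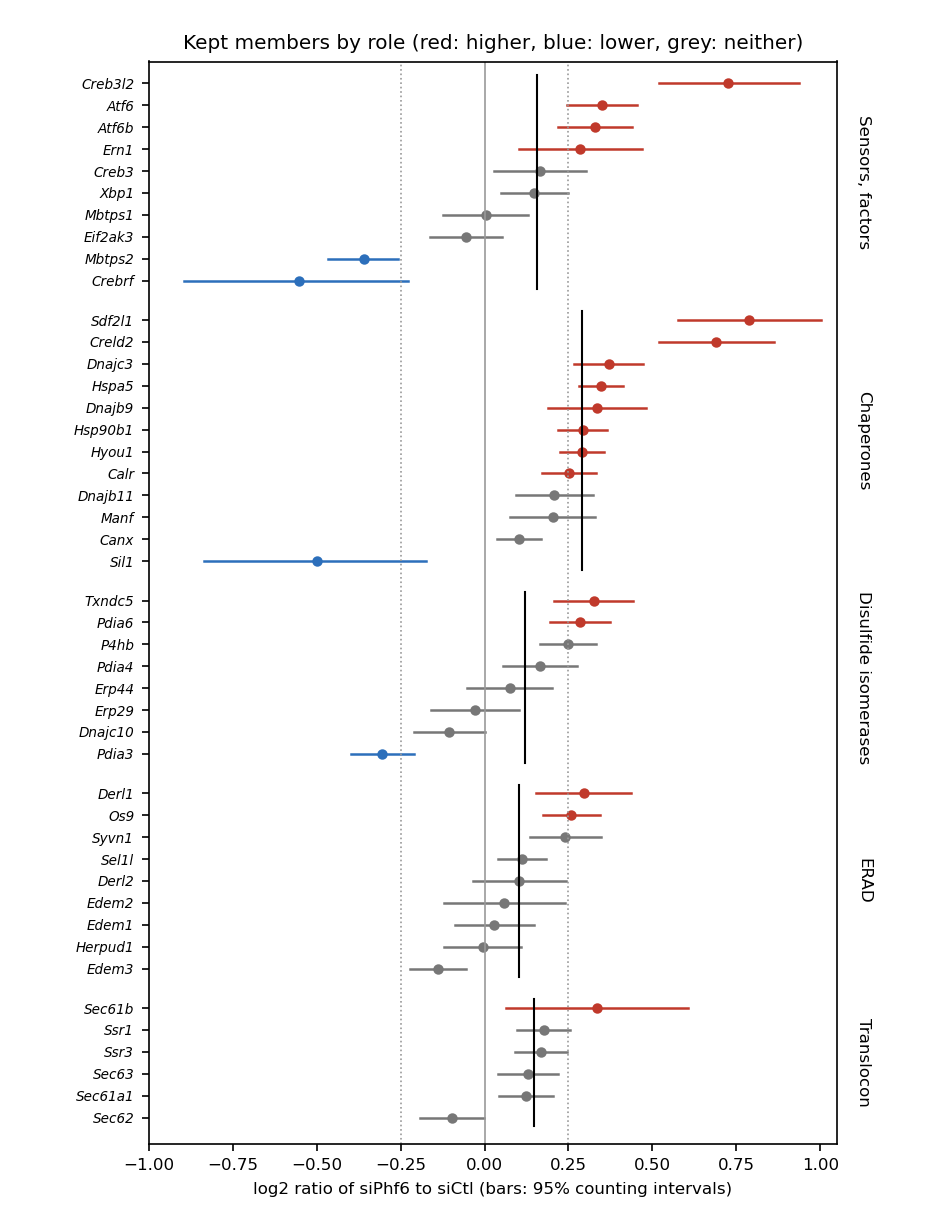
Horizontal axis, log2 ratio (siPhf6 over siCtl) of the 45 kept members by role, with 95% counting intervals as bars, black lines at the role medians and dotted lines at 0.25 in each direction. Chaperones have the rightmost median (0.29), the other roles lie between 0.10 and 0.16, and Crebrf, Sil1, Mbtps2 and Pdia3 are the blue points called lower.

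Further genes of the same path were taken from lists written by role. Their shares stand beside the 15.5% of all kept genes called higher and the 14.7% called lower. Of 34 kept genes of a second ER folding list (38 listed), 15 were higher and none lower, a share of 44.12%, with a median of 0.21. The highest were Clgn, a calnexin relative, with 240 and 360 reads (0.79, 0.55 to 1.03), and Ero1lb, an oxidase that recharges the isomerases, with 288 and 394 (0.65, 0.43 to 0.88). The lowest were the peroxiredoxin Prdx4 (-0.15, -0.43 to 0.12) and the calcium-binding Rcn2 (-0.14, -0.26 to -0.01), neither of which was called. Among 27 kept further ERAD genes (28 listed), 5 were higher (18.52%, near the share of all kept genes) and 1 lower (3.7%), with a median of 0.04. March6, an ERAD ubiquitin ligase (0.38, 0.32 to 0.44), and Rnf5 (0.34, 0.09 to 0.59) had the highest ratios. The Vcp cofactors had the lowest, Ufd1 with a call at -0.27 (-0.39 to -0.15) and Nploc4 without at -0.20 (-0.28 to -0.11). Of 26 kept further genes of translocation and glycan transfer (29 listed), 4 were higher (15.38%) and 1 lower (3.85%), with a median of 0.09. The higher share was close to that of all kept genes. Spcs3, a signal peptidase subunit (0.57, 0.45 to 0.69), and Srpr, the receptor of the signal recognition particle (0.38, 0.26 to 0.51), were the highest. Srp9, a subunit of that particle, was the lowest with 253 and 108 reads (-1.02, -1.36 to -0.69), kept through siCtl alone, and Srp68 of the same particle was at -0.20 (-0.31 to -0.09).

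The PERK and ATF4 arm was nearly level. Of 18 kept genes, 2 were higher (11.11%), 2 lower (11.11%) and 14 neither, with a median of 0.05. All kept genes had 15.5% higher and 14.7% lower. Atf3 (389 and 528 reads, 0.64, 0.45 to 0.84) and Phgdh (150 and 173 reads, 0.41, 0.08 to 0.73) were the highest. The reads of Phgdh were near the filter of 150, and its interval was wide. The cystine transporter Slc7a11 (-0.31, -0.43 to -0.20) and Sesn2 (-0.26, -0.35 to -0.16) were the lowest. Chaperones of other compartments were set beside these lists. Of 20 kept cytosolic chaperones and heat shock factors, 1 was higher (Dnajb4, 0.42, 0.29 to 0.55, followed by Hspa4 at 0.22 without a call), 2 were lower (Hspb8, -0.47, and Hsf1, -0.34) and the median was 0.02. Of 13 kept mitochondrial chaperones and proteases none was called in either direction, with a median of 0.13 and a range from -0.17 for Clpx and -0.13 for Dnaja3 to 0.17 for Htra2 and 0.26 for Hspe1, so a median above that of all kept genes was not limited to the ER lists. Of 26 kept genes of the carriers between ER and Golgi, 4 were higher (15.38%, close to the share of all kept genes) and none lower (median 0.13). Highest were Mcfd2, a cargo receptor subunit (0.55, 0.38 to 0.72), and Kdelr2, which returns ER chaperones from the Golgi (0.39, 0.25 to 0.52). Lowest were Sec24b (-0.12, -0.22 to -0.02) and Sar1b (-0.0071, -0.16 to 0.15).

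**Figure D5:**
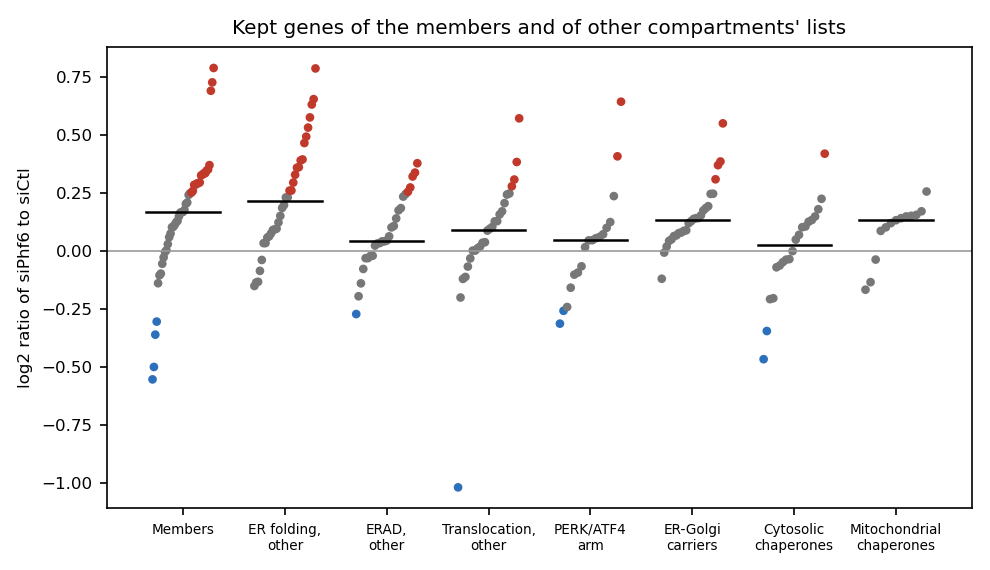
Vertical axis, log2 ratio (siPhf6 over siCtl) of the kept genes in 8 lists, each sorted, with black lines at the medians and red and blue points for genes called higher and lower. The members (median 0.17) and the second ER folding list (0.21) have the highest medians, and the cytosolic chaperones (0.02), the further ERAD genes (0.04) and the PERK and ATF4 arm (0.05) the lowest; Srp9 is the single point at -1.02.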

How the data were processed

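The deposited counts are whole reads per gene, 1 library each for siCtl and siPhf6. To make them, the authors aligned reads to mm10 (HISAT2), took out duplicates (samtools) and ran HTSeq with GENCODE M9; per the labels' processing notes deepTools 3.5.1 was used too, and other versions are not given in the sources used here. The kit (TruSeq RNA v2) does not mark strand. HTSeq's totals stayed out of library sizes (in no gene 25.3% and 24.1%, ambiguous 1.99% and 2.04%), and 1 read is worth 0.0823 and 0.0947 RPM. From the counts, genes reaching 150 reads in either library or both were kept, and log2 ratios and Clopper-Pearson intervals were computed (Python 3.11.15, scipy 1.17.1) and tested on simulated data. The simulated data held counting error only, without variation between cultures, so they do not test the calls for these cultures. Without molecular identifiers, reads are no independent molecules, so the intervals hold counting error alone. With 1 library per group no test of the conditions was possible. Symbols, exon lengths and transcript GC come from GENCODE M21 (GRCm38). Alternatives used TMM (edgeR 4.0.16), DESeq2 1.42.0 size factors, other filters, limits and trends. The members and lists were chosen with earlier results of these data known. Genes were named by a rule: Phf6, all members, the 2 highest and 2 lowest genes of each further list and the marker with the most reads; lists of called members and others were named after their values were seen. Protein features were not analysed here.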

Additional observations from a re-analysis of the deposited data

How the results depend on the processing

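The median of the members, 0.17, ran from 0.16 to 0.18 over all alternatives, and the ratio of Phf6 kept its direction and call in each. TMM or DESeq2 scaling gave 15 members higher (33.33%) and 4 lower (8.89%), with the calls of Calr and Os9 lost. Of all kept genes, 14.8% and 15.49% were then called. A length trend gave 14 (31.11%) and 4 (8.89%), with the call of Sec61b lost as well. Here 15.05% and 14.34% of all kept genes were called. A limit of 0.5 on the log2 ratio gave 3 higher and 1 lower, and so did an assumed coefficient of variation of 0.1. Stricter rules call fewer genes by construction. The share of members called higher, 6.67%, was then near that of all kept genes, 5.55% and 6.56%. In the main setting these shares were 37.78% and 15.54%. A filter of at least 1000 reads, chosen after seeing the data, kept 33 members, of which 10 were higher and 2 lower (30.3% and 6.06%), where 9.66% and 12.79% of the 4174 genes kept were called. Counts over all genes, 1574 higher and 1487 lower, became 562 and 499 with the limit of 0.5, 665 and 632 with the assumed variation, 2408 and 1948 with a filter of 10 reads, 2500 and 1977 with none, and 403 and 534 with 1000 reads. No paired analysis was possible because each group has 1 library, and leaving out a library would leave no comparison. At this depth the interval of a member's log2 ratio spans 0.13 for Hspa5 and 0.67 for Crebrf, so the sparse members can show only larger differences.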

Other observations

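Outside the members, 6 kept genes had an ERSE in their promoter window. Among them 3 were higher (Hnrnpa3 at 0.42, Spats2l at 0.37 and Adcy3 at 0.31), 2 lower and 1 neither (Zfp57 at -0.10). Both shares, on only 6 genes, lay above the 15.5% and 14.7% of all kept genes called higher and lower. The median log2 ratio of the 6 was 0.10, so they showed no common direction. Alg12, a mannosyltransferase that builds the glycan precursor in the ER membrane, is encoded on the strand opposite to Creld2, and the ERSE in its window is the same site, chr15:88819520-88819538, with 201 bases between it and the start of Alg12 and 107 between it and the start of Creld2. The genes at this site had opposite calls. Creld2 was higher (0.69), and Alg12 was lower, with 238 and 167 reads (-0.31, interval -0.60 to -0.02). Pan2, a deadenylase subunit with an ERSE in its window, was also lower, with 623 and 298 reads (-0.86, -1.07 to -0.66). These genes were picked after their values were seen, and each has 1 library per group.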
